A study of Mus musculus with 3 samples.

Results

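The transcripts described here come from mouse genome intervals that carry no gene name on the array. Each is read by a probe of 60 bases whose name holds only a chromosome, a start, an end and a strand letter, F for forward or R for reverse, and whose description calls it a lincRNA. There were 4449 such interval probes among 56605 probes other than controls (7.86%). They lie in 3229 intervals of build mm9, or 4061 combinations of interval and strand. The rule that takes them uses the form of the probe's name and no signal. Of these, 2363 (53.1%) passed the scanner software's call of well above background on 1 or more of the 3 arrays, and are called detected below.

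The RNA came from Hepa1c1c7 cells, a mouse hepatoma line, that received by transfection a vector for Cd74, a vector for Tmem54 or, as the control, the empty vector. Each vector has 1 array, and the arrays are named Empty, Cd74 and Tmem54 below. The labels give 1 sample per vector, so each comparison is between 2 arrays with no replicate. Cd74 encodes the invariant chain that escorts MHC class II molecules, and Tmem54 encodes a transmembrane protein.

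Long intergenic noncoding RNAs are transcripts made from DNA between protein-coding genes, usually spliced, capped and polyadenylated, that do not encode a known protein. Many were first listed from chromatin marks of active promoters and transcribed regions, which give an interval but not always the strand or the exons. They are known for low levels and for restriction to particular cell types. Some act on genes nearby, others are host transcripts of microRNAs or snoRNAs, and intervals drawn on an early genome build can overlap parts of genes that were named later.

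The 10 sequences that follow are interval probes from loci on chromosomes 1, 9, 11 and X that are described below, in genome order. They were chosen after their values were seen, and most interval probes past 2-fold are not among them. Capitals mark AATAAA or ATTAAA, the usual poly(A) signals, found on the strand of the probe. These hexamers occurred in 6.45% of the interval probes and in 14.0% of the other probes, and no match says only that these letters are not in the 60 bases. The first 6 come from 3 overlapping or neighbouring intervals on chromosome 1.
A_30_P01017895: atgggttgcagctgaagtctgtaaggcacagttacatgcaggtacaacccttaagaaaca
A_30_P01031526: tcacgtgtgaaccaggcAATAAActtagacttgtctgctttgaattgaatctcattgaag
A_30_P01021838: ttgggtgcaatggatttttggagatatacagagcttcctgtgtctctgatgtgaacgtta
A_30_P01030969: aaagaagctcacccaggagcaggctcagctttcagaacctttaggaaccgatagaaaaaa
A_30_P01024163: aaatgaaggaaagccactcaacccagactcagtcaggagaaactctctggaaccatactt
A_30_P01023338: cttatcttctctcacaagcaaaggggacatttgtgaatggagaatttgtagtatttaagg
The next 2 come from chromosome 9 and touch end to end, the one after is from chromosome 11 and the last from chromosome X.
A_30_P01020518: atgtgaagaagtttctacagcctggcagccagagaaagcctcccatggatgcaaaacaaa
A_30_P01018914: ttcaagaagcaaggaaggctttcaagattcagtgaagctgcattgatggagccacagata
A_30_P01033459: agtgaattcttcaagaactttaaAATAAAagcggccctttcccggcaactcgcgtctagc
A_30_P01023452: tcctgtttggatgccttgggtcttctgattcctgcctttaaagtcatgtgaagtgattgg

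Strand is the other feature that the sequences show directly. Of the intervals, 1236 had forward probes only, 1161 reverse probes only and 832 both. The strand letter equalled the strand of the probe's own coordinate for all 4358 interval probes that have one. In 198 pairs of interval probes, at least 25 bases of one were the exact complement of the other, so that both strands of the same DNA were read. Both pairs printed next are of this kind, with the complementary bases in capitals, and were chosen after their values were seen, from pairs with at least 58 complementary bases and 1 undetected partner, for the brightest probe and the longest run.
A_30_P01018981: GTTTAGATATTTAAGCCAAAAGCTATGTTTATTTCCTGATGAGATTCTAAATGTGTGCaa
A_30_P01031837: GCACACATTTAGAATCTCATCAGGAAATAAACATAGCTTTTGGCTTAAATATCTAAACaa
A_30_P01032512: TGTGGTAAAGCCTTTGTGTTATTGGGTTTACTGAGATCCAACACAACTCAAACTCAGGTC
A_30_P01023284: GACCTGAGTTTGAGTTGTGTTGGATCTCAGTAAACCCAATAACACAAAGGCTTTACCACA
A_30_P01018981, the forward probe of chr7:13533925-13544525, gave processed signals of 1486 on Empty, 1525 on Cd74 and 1457 on Tmem54. Its partner on the reverse strand, A_30_P01031837, was not well above background on any of the 3 arrays. In chr19:61177675-61219875 the reverse probe A_30_P01032512 gave 111, 128 and 122, and A_30_P01023284, its complement over all 60 bases, was not well above background on any array. Among the 198 complementary pairs, both probes were detected in 60, only 1 in 82 and neither in 56. Among the 832 intervals with probes on both strands, both strands were detected in 332, only the forward strand in 154, only the reverse strand in 198 and neither in 148.

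Detected interval probes were dim beside the rest of the array. On Empty 2229 were detected (50.1%), on Cd74 2124 (47.7%) and on Tmem54 2119 (47.6%), beside 55.7%, 54.7% and 54.3% of the other probes. The median processed signal of those detected was 69.1, 73.1 and 75.5 on the 3 arrays, and that of the other detected probes 365, 375 and 400. Of the interval probes, 1968 were detected on all 3 arrays, 173 on 2, 222 on 1 and 2086 on none. Of those detected on 1 array only, 114 were on Empty, 52 on Cd74 and 56 on Tmem54, with median signals between 17.9 and 19.9. The lowest signal called well above background was 13.1, 13.5 and 13.9 on the same arrays, so most of these lay close to the limit of detection. On 1 or more arrays, 53.1% of the interval probes and 57.8% of the other probes were detected. The split of the other probes by number of arrays is not given here, and they too were detected most often on Empty. At the bright end, 59 interval probes had a mean signal over 10000.

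**Figure D1:**
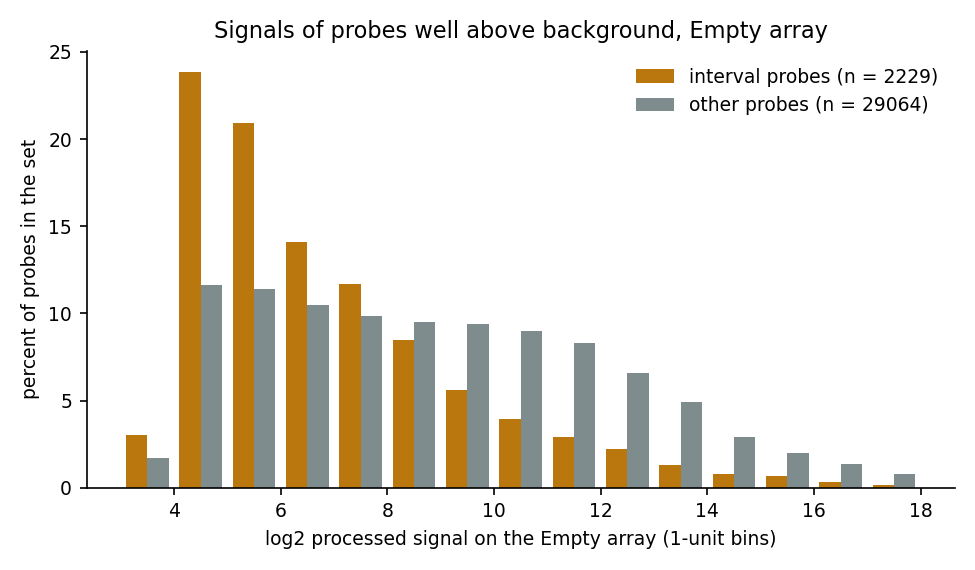
Distribution of log2 processed signal on the Empty array, in bins 1 unit wide, for interval probes (n = 2229) and other probes (n = 29064) well above background there; bar height is the percent of each set. The fullest bin of the interval probes, from 4 to 5, holds 23.9% of them and 11.7% of the other probes.

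Detection differed with the size of the interval. Of interval probes from intervals under 1 kb, 401 of 966 were detected (41.5%). The share was 55.0% from 1 to 10 kb, 56.1% from 10 to 50 kb and 60.2% over 50 kb. By chromosome it ran from 39.7% on X to 64.7% on 17. The median GC content of the 60 bases was the same, 45%, for detected and for undetected interval probes.

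The brightest interval probe was A_30_P01026458, in chr11:22681800-22707775_R, with about the same signal on each array: 166179 on Empty, 167382 on Cd74 and 170756 on Tmem54. The 10 brightest differed by at most 0.31 on the log2 scale between any 2 arrays. Both of the pair in chr6:116123643-116124550_F, A_30_P01026091 and A_30_P01026611, were lower on Cd74 than on Empty by 0.24 and 0.26. A further bright group lay at chr17:39960567-39992817, beside the annotated transcript AY036118. There the forward probes A_30_P01020514 and A_30_P01027833 differed from Empty by 0.11 and 0.06 with Cd74, and the reverse probes A_30_P01018620, A_30_P01019912 and A_30_P01025659 by -0.21, -0.21 and -0.16. None of these reached 2-fold. All but A_30_P01020514 lie between the named genes Esp15 and AY036118. In RefSeq on GRCm38.p6 the only gene between those is Rn18s-rs5, a pseudogene. Whether the interval probes read it was not tested. A_30_P01020514 was 1 of 5 interval probes printed 10 times, whose spots had an SD of 0.0379 to 0.131 within an array.

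Named genes lay close to many of the intervals. The median gap from an interval probe to the nearest probe of a named gene was 18436 bases, and 3377 of 4358 had one within 50 kb. Detection was 56.9% where that gene was itself detected, 49.6% where it was not, and 48.2% where no named gene lay within 50 kb. A share of 8.83% (385 interval probes) lay between probes of a single named gene, in 210 cases one on the same strand, so intergenic holds for the name of the probe and not for every position. By sequence, 53 interval probes lay whole inside a promoter window of RefSeq on GRCm38.p6, 250 bases before to 50 after a gene's start, and 28 of these were detected. A_30_P01026655 lies in the window that Gas5, a host of snoRNAs, shares with Zbtb37 on the other strand. Its differences from Empty were -0.17 with Cd74 and 0.24 with Tmem54, and it sits in row 373, in the block of rows described below.

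By sequence, 3 interval probes overlapped microRNA hairpins of RefSeq on GRCm38.p6. A probe of this length reads a precursor or host transcript and not the mature microRNA. The bases shared with the hairpin are in capitals.
A_30_P01031395: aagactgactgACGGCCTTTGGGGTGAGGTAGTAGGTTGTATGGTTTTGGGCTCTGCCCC
A_30_P01032185: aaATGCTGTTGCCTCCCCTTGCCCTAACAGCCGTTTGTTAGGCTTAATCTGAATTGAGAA
A_30_P01031395, in chr15:85412264-85549139_F, shares 49 bases with the Mirlet7c-2 hairpin, a member of the let-7 family. Its signals were 29.5 on Empty, 18.8 on Cd74 and 24.7 on Tmem54, and neither vector reached 2-fold (-0.59 and -0.27). A_30_P01032185, in chr8:91471819-91551119_F, shares 58 bases with Mir8110 and read 313, 279 and 284. The probe over Mir363, A_30_P01026554, was not well above background on any array.

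The design compares the RNA of cells given either vector with that of cells given the empty one. With Cd74 against Empty, 68 of 2307 were past 2-fold, beside 2.22% of all probes. Of these 31 were higher and 37 lower, beside 0.966% and 1.26% of all probes. In these counts a probe that is well above background on only 1 of the arrays has a bound: its bright signal against the higher of the other array's lowest detected signal and the probe's own. With Tmem54 against Empty, 52 of 2311 were past 2-fold, beside 1.4% of all probes, 22 of them higher and 30 lower, beside 0.62% and 0.783%. Between Cd74 and Tmem54 it was 69 of 2249, beside 2.89%, with 36 higher on Cd74 and 33 lower, beside 1.4% and 1.49%. With normexp correction the split was 10 higher and 6 lower with Cd74, beside 0.287% and 0.283% of all probes under that setting. It was 6 and 7 with Tmem54, beside 0.232% and 0.188%, and 14 and 7 between the vectors, beside 0.424% and 0.474%.

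Restricted to probes well above background on both arrays, 31 of 2046 were past 2-fold with Cd74, beside 1.17% of all probes, 17 higher and 14 lower, beside 0.466% and 0.7%. With Tmem54 it was 14 of 2037, beside 0.547%, 8 higher and 6 lower, beside 0.245% and 0.302%. Between Cd74 and Tmem54 it was 35 of 1994, beside 1.77%, 19 higher on Cd74 and 16 lower, beside 0.818% and 0.95%. The interval probes' shares can be read against these backgrounds only as descriptions, since 1 array per vector allows no test. In bulk RNA, fewer cells making a transcript and less of it per cell cannot be told apart.

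Array position moved with these counts. The arrays have 384 rows, and rows 369 to 384, the last block of 16, hold 4.83% of the interval probes. In that block 10 of 113 interval probes well above background on both arrays were 2-fold different between Cd74 and Empty (8.85%), beside 21 of 1928 (1.09%) in the other 23 blocks. For Tmem54 against Empty the numbers were 9 of 113 (7.96%) and 5 of 1919 (0.261%). Between Cd74 and Tmem54 it was 12 of 109 and 23 of 1880 (1.22%). These counts leave out probes printed more than once. Over all probes, the share past 2-fold in the last block was 6.41% with Cd74, 6.33% with Tmem54 and 7.51% between the vectors, and 0.925%, 0.281% and 1.5% without that block. Among replicate spots of probes printed more than once, none of 114 in those rows lay 2-fold from its probe's mean on any array. Their SD there was 0.036 on Empty, 0.043 on Cd74 and 0.049 on Tmem54. This is a spread within an array, and it cannot show whether dim probes in those rows differ between arrays.

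Without the last block, and with bounds counted, 37 interval probes were past 2-fold with Cd74, beside 1.47% of all probes, 19 higher and 18 lower, beside 0.613% and 0.853%. With Tmem54 it was 20, beside 0.659%, 7 higher and 13 lower, beside 0.26% and 0.399%. Between the vectors it was 36, beside 2.15%, 22 higher on Cd74 and 14 lower, beside 1.04% and 1.1%. The part of array position in the values of single probes was not tested, and the row is given below for each named probe in that block.

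**Figure D2:**
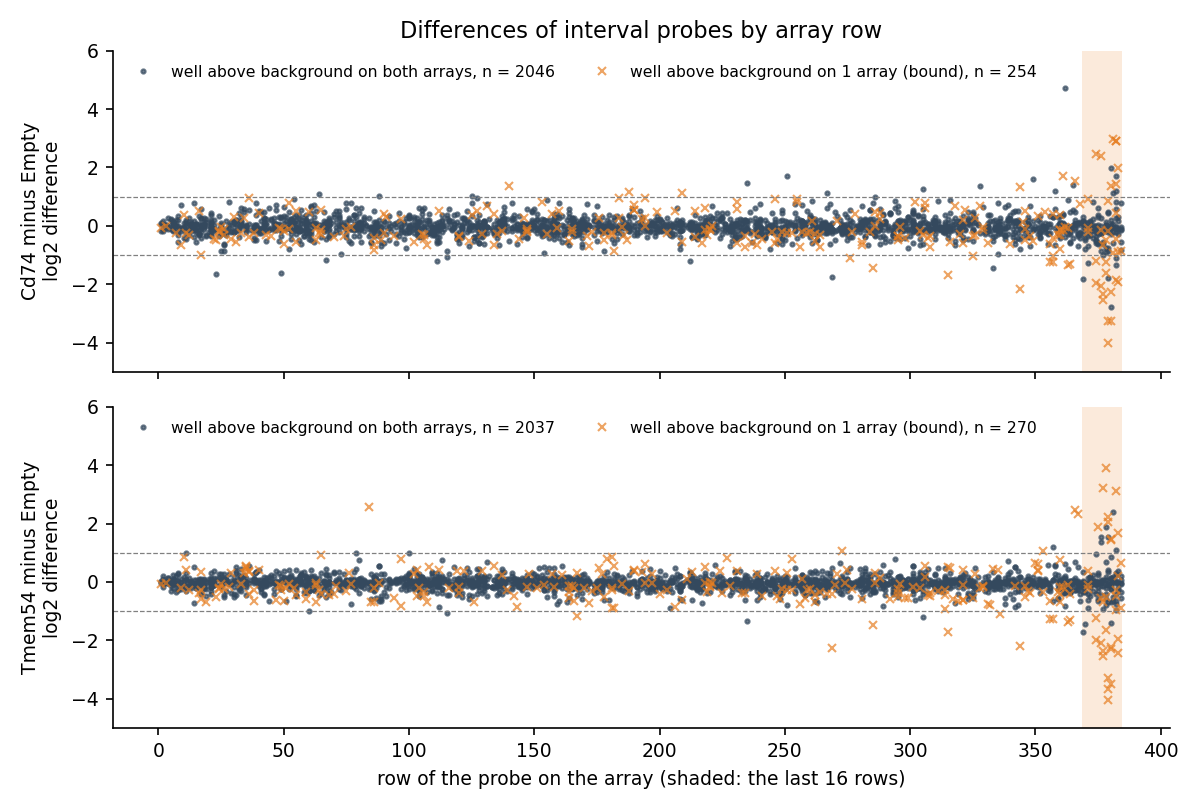
Log2 difference of each interval probe from Empty against its row on the array, for Cd74 (top) and Tmem54 (bottom); dots are probes well above background on both arrays, crosses are bounds, dashed lines mark 2-fold and the shaded band the last 16 rows. With Tmem54, 9 of the 14 dots past 2-fold lie in the band.

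The clearest group was on chromosome 1, where 6 reverse-strand interval probes were lower on Cd74 and level on Tmem54. They lie on both sides of Ifi204, a member of the interferon-inducible Ifi200 family of DNA sensors. The locus was singled out after its values were seen. The interval chr1:175654606-175672031_R has 3 of them. A_30_P01017895 read 393 on Empty, 164 on Cd74 and 414 on Tmem54, a log2 difference of -1.19 ± 0.21 with Cd74 and 0.06 ± 0.20 with Tmem54, where the error is that of the scanner's error model for 1 array each. A_30_P01031526 starts at the base after it and read 243, 102 and 227, differences of -1.18 and -0.11. A_30_P01021838, 2493 bases further, read 215, 76.3 and 202, differences of -1.43 and -0.10. Only Cd74 was low for these 3, and Empty and Tmem54 were within 1.08-fold of each other.

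The overlapping interval chr1:175660642-175671878_R gave the same picture with A_30_P01030969. It read 162 on Empty, 48.8 on Cd74 and 175 on Tmem54, differences of -1.67 and 0.10. Its second probe, A_30_P01024706, was well above background on Empty alone, at 17.6. On the far side of Ifi204, chr1:175705225-175717250_R had A_30_P01024163 at 1146, 478 and 1228, differences of -1.20 and 0.09. A_30_P01023338 in the same interval read 74.1, 23.2 and 74.0, differences of -1.61 and -0.01. The Cd74 array was the low one for all 6, by 2.27-fold to 3.17-fold against Empty. Their rows ran from 23 to 333, none in the last block, so their spots were spread over the array. With normexp background correction, which adds an offset and shrinks the folds of dim probes, the direction with Cd74 held for all 6 and only A_30_P01024163 stayed past 2-fold, at -1.12. The others were then at -0.63 (A_30_P01023338), -0.87 (A_30_P01031526), -0.88 (A_30_P01021838), -0.95 (A_30_P01017895) and -0.99 (A_30_P01030969).

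The forward-strand interval probes at this locus were at or below the limit of detection. A_30_P01032721 in the first interval was not well above background on any array, and A_30_P01025287 in the last was so only on Empty, at 17.7. The nearest named gene, Ifi204, was itself lower on Cd74, by -1.30 and -1.24 for its 2 probes, with Tmem54 at -0.03 and 0.12. Further along the same strand Mndal, which encodes another Ifi200 protein, was at -1.56 with Cd74, and Ifi205 at -0.80. On the forward strand Ifi208 was at 0.19 and Ifi209 at -0.40, so the 2-fold differences here were on the reverse strand. In the newer RefSeq annotation, GRCm38.p6, Ifi207 is the protein-coding gene between Ifi208 and Ifi204, and Ifi203-ps, a pseudogene, lies between Ifi204 and Mndal. Neither has a named probe on this array, and the positions of the intervals were not converted to that build, so whether these probes read exons of those genes was not tested. The interval probes were not copies of one another. The 9 at the locus, detected or not, were paired with each other and with named probes of the Ifi200 genes and Aim2. Across 180 pairings the median of the best ungapped matches over at least 40 bases was 39.6% identical. Between interval probes the best was 48.2%. The best of all was 69.8% over 43 bases, between A_30_P01017895 and a probe of Ifi202b, which was not well above background on any array.

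**Figure D3:**
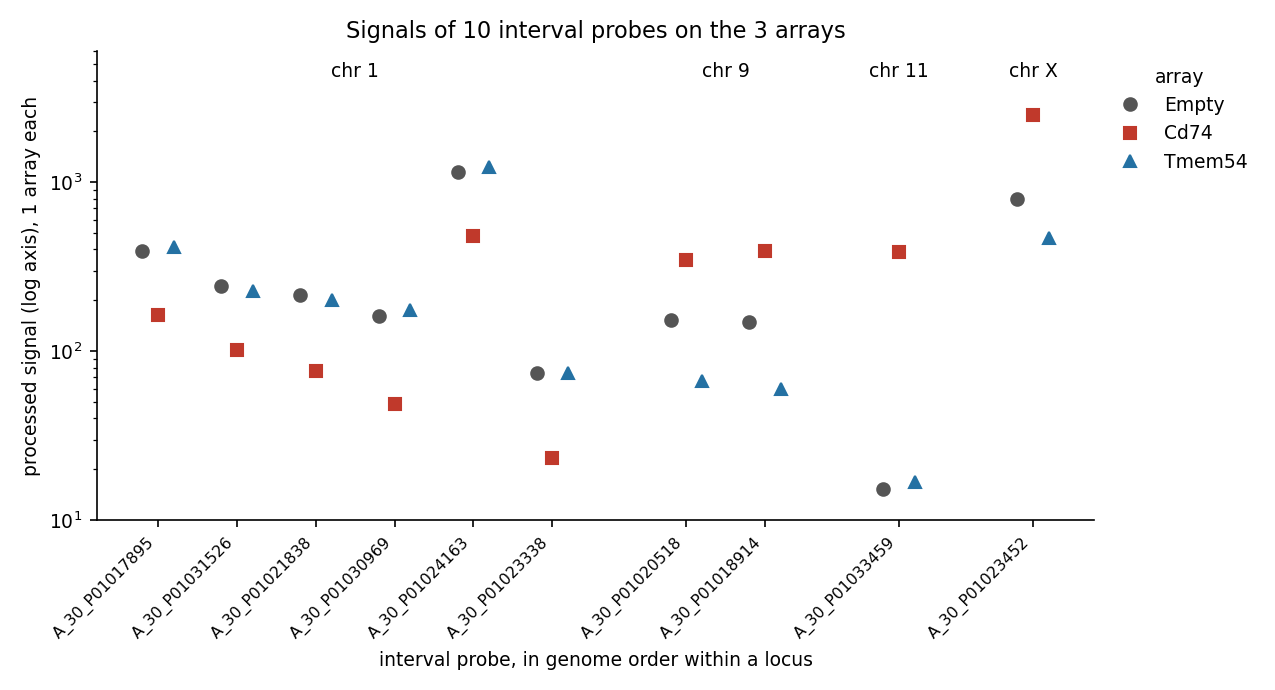
Processed signal on a log axis for 10 interval probes at 4 loci, with 1 circle, square and triangle per probe for the Empty, Cd74 and Tmem54 arrays (1 array each, no error bars). At the chromosome 1 locus Cd74 is the low array for all 6 probes; at the chromosome 9 locus Cd74 is high and Tmem54 low.

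The pair on chromosome 9 differed from Empty in opposite directions with the 2 vectors. They lie between Gsta4 and Gm10639, within a cluster of alpha-class glutathione S-transferases, enzymes that conjugate glutathione to reactive compounds. A_30_P01018914, in chr9:78107225-78118850_F, read 149 on Empty, 393 on Cd74 and 59.6 on Tmem54. Its differences from Empty were 1.47 ± 0.21 with Cd74 and -1.33 ± 0.22 with Tmem54. A_30_P01020518, in the overlapping interval chr9:78104935-78116974_F, read 152, 349 and 66.2, differences of 1.26 and -1.21. The order of the arrays, Cd74 above Empty above Tmem54, was the same for both, and Cd74 exceeded Tmem54 by 6.96-fold and 5.56-fold. The 2 probes touch end to end and are not independent readings. With normexp correction the Cd74 side stayed past 2-fold, at 1.20 for A_30_P01018914 and 1.03 for A_30_P01020518, and the Tmem54 side did not, at -0.74 and -0.72.

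Another probe of the chromosome 9 locus, A_30_P01027697, 1061 bases downstream on the same strand, was not well above background on any array. Gm10639, 36350 bases from A_30_P01018914 on the same strand, read 254, 597 and 92.0, differences of 1.30 and -1.48. Gsta2, on the reverse strand, was at 1.25 and -1.13, and Gsta4, upstream, at 0.44 and -0.39. Between Gsta4 and Gm10639 the GRCm38.p6 annotation holds 5 genes, of which Gsta1 and Gm3776 are protein-coding, and none of the 5 has a named probe on this array. The interval probes shared no more than 47.6% of bases with any named alpha-class probe in an ungapped match over at least 40 bases.

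The widest measured gap was on chromosome 11. A_30_P01033459, in chr11:120046656-120050065_F, read 15.4 on Empty, 387 on Cd74 and 16.9 on Tmem54. The Cd74 array was 26.4-fold above Empty, a log2 difference of 4.72 ± 0.33, and Tmem54 was level with Empty at 0.12. Its signals on Empty and Tmem54 were close to the lowest detected there, so the size of the fold rests on values near background. With normexp correction the difference of A_30_P01033459 was 2.58. The probe sits in row 362, in the block next to the last, where 3 of 91 interval probes and 22 of 1134 other probes (1.94%) differed 2-fold with Cd74. A second forward probe in an overlapping interval, A_30_P01032751, was not well above background on any array. The nearest named transcript, 2810410L24Rik, lies 143 bases away on the opposite strand and was at 0.74 with Cd74. Bahcc1, on the same strand further along, was at 0.50. In RefSeq on GRCm38.p6 the only gene between 2810410L24Rik and Bahcc1 is 2900052L18Rik, a long noncoding RNA gene with no named probe on this array. Whether A_30_P01033459 reads it was not tested.

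On chromosome X, A_30_P01023452 in chrX:11693432-11693908_R read 797 on Empty, 2485 on Cd74 and 466 on Tmem54. Its differences were 1.71 ± 0.20 with Cd74 and -0.79 ± 0.20 with Tmem54, so the 3 arrays stood in the same order as at the chromosome 9 pair. It lies between probes of Bcor, a transcriptional corepressor gene, on the same strand, and those Bcor probes were at 0.35 and -0.03 with Cd74. Around it, 6 more interval probes of the same stretch were not well above background on any array, and A_30_P01018576 was detected at 24.4 on Cd74 and 16.7 on Tmem54 only.

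Other interval probes named by their rank were higher with Cd74 and lay outside the last block. Of these, A_30_P01031522 in row 365 and A_30_P01030863 in row 358 sat in the block next to the last. There 3 of 91 interval probes and 22 of 1134 other probes differed 2-fold with Cd74. A_30_P01021777, in chr4:105035450-105059250_F, read 40.1, 116 and 40.3 on Empty, Cd74 and Tmem54, a difference of 1.59 with Cd74, and its nearest named gene, Plpp3, was at -0.44. A_30_P01031522, in chr7:134374716-134375286_R, read 149, 380 and 144, a difference of 1.41. The second reverse probe of that interval, A_30_P01026415, was detected on Empty at 16.7 and Tmem54 at 19.3 and not on Cd74, so the interval did not move as one. A_30_P01030863, in chr12:15735906-15798506_R and 1934 bases from a probe of the pseudokinase gene Trib2 on the same strand, read 51.1, 113 and 62.2. It was at 1.21 with Cd74, and Trib2 was at -0.28. A_30_P01030369, on chromosome 18, was at 1.10 with Cd74 and -0.45 with Tmem54. Cd74 was the high array for these 4, at least 2-fold above Empty in each, and 1.91-fold above Tmem54 for A_30_P01030863. With normexp correction A_30_P01031522 was at 1.09 and the others were below 2-fold, A_30_P01021777 at 0.87, A_30_P01030863 at 0.70 and A_30_P01030369 at 0.94.

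On the low side with Cd74, outside the last block and the chromosome 1 locus, A_30_P01020445 in chr2:92582386-92599365_F read 72.3, 35.7 and 72.1, a difference of -0.95 that did not reach 2-fold. A_30_P01025254 on chromosome 18, row 115, was too dim for the ranking and was chosen after its values were seen. It read 43.3, 19.8 and 32.2, a difference of -1.06 with Cd74 and -0.44 with Tmem54. A_30_P01026151, in chr16:50752452-50753589_F near the lncRNA gene Dubr, read 381, 189 and 545. It was at -0.94 with Cd74 and 0.51 with Tmem54, so Cd74 lay 2.73-fold below Tmem54, and neither Dubr probe was well above background. A_30_P01022607 on chromosome 12 (-0.99 with Cd74) and A_30_P01020277 on chromosome 17 (-1.34) sat in rows 377 and 382.

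For Tmem54, 5 of the 10 highest ranks and 6 of the 10 lowest lay in the last block. A_30_P01032302 on chromosome 18, row 381, read 37.5 on Empty, 78.7 on Cd74 and 200.01 on Tmem54, a difference of 2.40 with Tmem54. A_30_P01018271 on chromosome 14, row 378, was at 1.87, A_30_P01032797 on chromosome 11, row 379, at 1.54, and A_30_P01020564 on chromosome 4, row 376, at 1.53. At the low end A_30_P01019207, in chr10:95772764-95825001_F, row 369, read 198 on Empty, 53.3 on Cd74 and 60.4 on Tmem54, differences of -1.82 and -1.72. A_30_P01022866 on chromosome 8, row 380, was at -1.40. The chromosome 9 pair came next, and these were the lowest ranks with Tmem54 outside the last block.

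Of the interval probes detected on all 3 arrays, 32 were at least 2-fold from Empty with Cd74 or Tmem54, and 11 of these sat in the last block. With both vectors 4 passed 2-fold, and in 2 of them, the chromosome 9 pair, the vectors lay on opposite sides of Empty. Shares over all probes are not given for these joint counts, so whether they are usual for the array was not tested. For each vector alone, 1.17% of all probes well above background on both arrays compared were past 2-fold with Cd74 and 0.547% with Tmem54. The Empty array is shared by both comparisons, so a low or high reading on Empty alone moves both the same way.

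**Figure D4:**
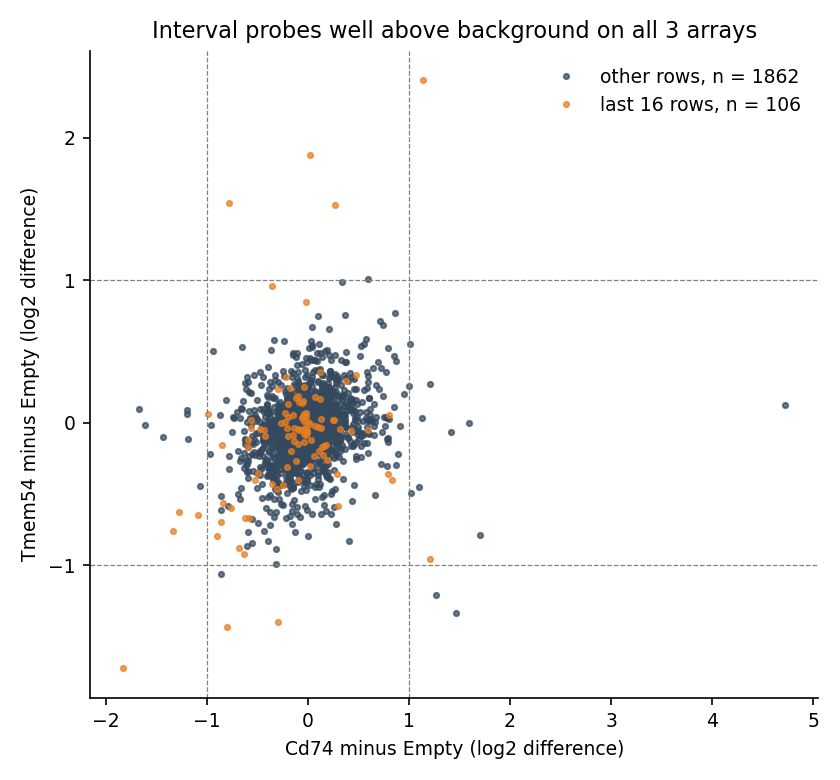
Log2 difference with Cd74 (horizontal) and with Tmem54 (vertical), both from the same Empty array, for the 1968 interval probes well above background on all 3 arrays; orange dots are the 106 in the last 16 rows and dashed lines mark 2-fold. The dot farthest right, at 4.72, is A_30_P01033459, and the pair past 2-fold at the lower right is the chromosome 9 pair.

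The largest bounds were also in the last rows. With Cd74 the strongest were A_30_P01018995 on chromosome 18, row 379, detected only on Empty at 230 and at least 16.3-fold lower with Cd74, and A_30_P01023107 on chromosome 6, row 381, detected only on Cd74 at 99.2 and at least 7.92-fold higher. With Tmem54, A_30_P01028859 on chromosome 8, row 378, was detected only on Tmem54 at 197 and at least 14.9-fold higher. The ranking of bounds named 13 interval probes over the 3 comparisons, all from rows 377 to 382. The nearest named gene was detected for 10 of the 13, and for 1 of these it was past 2-fold. That gene was Gm14379, 3964 bases from A_30_P01019034 on the same strand and in row 384, at -1.15 with Tmem54.

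Probes of the same interval and strand gave a check within the array. With Cd74, 132 pairs from 110 intervals differed from each other by a median of 0.15, and 4 pairs were 2-fold on the same side, all from the 2 chromosome 1 intervals. In 3 pairs only 1 probe was 2-fold. The correlation of the paired differences was 0.60 and 0.38 without both loci, a description over probes that share an array. With Tmem54, none of 134 pairs had both probes past 2-fold and the correlation was -0.17.

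Interval probes and their nearest named genes moved together at few loci. Of 1380 pairs within 50 kb with values for Cd74 against Empty, the interval probe was past 2-fold in 42, and the gene was past 2-fold on the same side in 9 of these. The gene was past 2-fold in 1.74% of all 1380 pairs. The 9 were the 6 beside Ifi204, the 2 beside Gm10639 and A_30_P01018286 on chromosome 3, a bound detected on Empty alone at 62.8 beside Gm5148, also a bound. For Tmem54 against Empty it was 3 of 30, the chromosome 9 pair and A_30_P01019034 in row 380, and the gene was past 2-fold in 0.58% of all 1379 pairs. Between Cd74 and Tmem54 it was 10 of 40, beside 2.54% of 1339 pairs. The correlation over measured pairs with Cd74 was 0.21 (n = 1197), and 0.11 without the chromosome 1 and 9 loci. On the same strand as the gene, 8 of 30 interval probes past 2-fold with Cd74 had the gene with them, all 8 from the chromosome 1 and 9 loci, where 2.16% of all same-strand pairs had the gene past 2-fold. On the opposite strand it was 1 of 12, beside 1.18%.

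**Figure D5:**
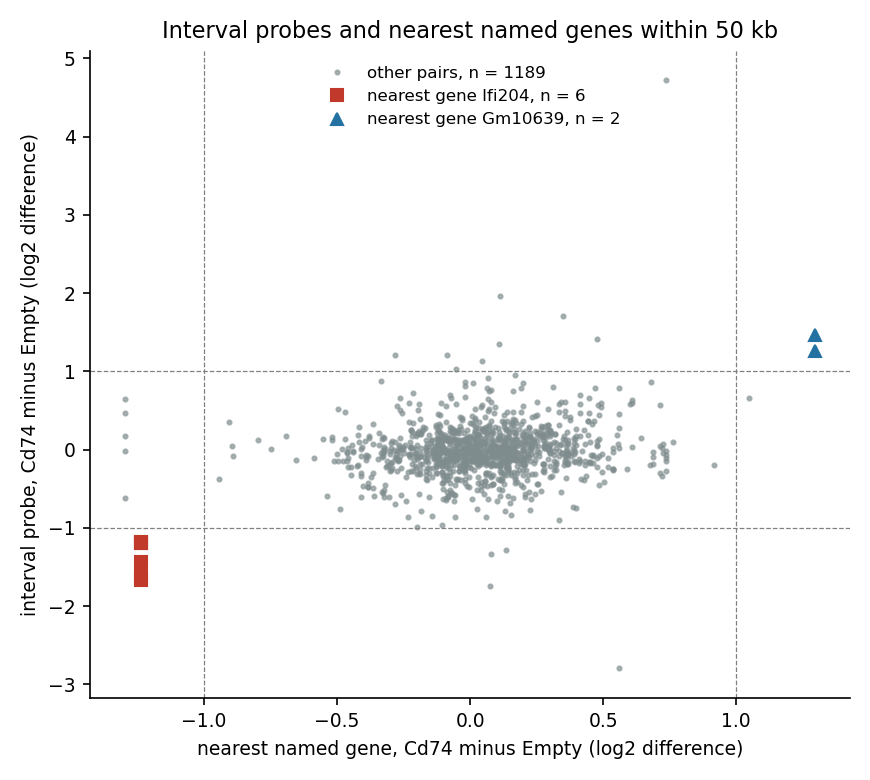
Log2 difference with Cd74 of each interval probe (vertical) against that of its nearest named gene within 50 kb (horizontal), 1197 pairs well above background on Empty and Cd74; squares are the 6 probes beside Ifi204, triangles the 2 beside Gm10639. These 8 are the pairs past 2-fold on the same side, while 5 interval probes beside Isg15, at -1.30, lie between -0.62 and 0.64.

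Genes from lists of stress, interferon and growth factor responses were also looked up as neighbours. Over the whole array, 3377 interval probes lay within 50 kb of a named gene, and 24917 named genes had a coordinate. Whether the listed genes had fewer interval probes beside them than other genes was not tested. Of 20 ATF4 response genes, 13 NRF2 response genes and 10 genes of the early embryo, none was the nearest named gene within 50 kb of an interval probe. The NRF2 list holds Gsta1, Gsta2 and Gsta4 of the cluster around the chromosome 9 pair, whose nearest named gene with a probe was Gm10639. Isg15, a ubiquitin-like interferon response gene, had 6 interval probes beside it, of which 5 were detected. With Cd74 Isg15 was at -1.30, and its 5 interval probes were at 0.64, 0.47, 0.17, -0.02 and -0.62, so none was 2-fold and they lay on both sides of 0. All 5 were dim, with signals from 17.2 to 97.6. Those on the reverse strand lay 4078 to 4237 bases from the Isg15 probe, so they may not be independent readings. The one at -0.02, A_30_P01029969, sits in row 380, in the last block. Smad7, an inhibitor of TGF-beta and BMP signalling, had 4, of which the 3 detected were at -0.47, -0.47 and -0.42 with Cd74 and between -0.11 and 0.00 with Tmem54, with Smad7 itself at -0.38 and 0.14. Of those beside Smad7, A_30_P01033176 sits in row 374, in the last block. Nfkbia had 3, of which 1 was detected, on Empty alone. None of the 9 detected interval probes beside these genes reached 2-fold in any comparison. Over all probes the shares past 2-fold were 2.22% with Cd74, 1.4% with Tmem54 and 2.89% between the vectors, so 9 probes are too few to compare.

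Annotated long noncoding RNAs read by other probes give the scale of named transcripts of this kind. Of 26 listed, 22 had a probe matched to that symbol and 19 were detected. Probes that the array names HOTAIR and lincP21 were not matched to a listed symbol, and neither was well above background on any array. Their median difference was 0.16 with Cd74 and -0.05 with Tmem54, beside -0.03 and -0.03 for the measured interval probes. With Cd74 the highest were Hottip at 0.86, Zfas1 at 0.85, Snhg1 at 0.72 and Snhg12 at 0.66, the last 3 hosts of snoRNAs, and none reached 2-fold. With Tmem54, Meg3, an imprinted lncRNA, was not well above background on Tmem54 and was at least 2-fold lower than on Empty, a log2 bound of -1.17.

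As checks on the arrays, Cd74 read 26.8 on Empty, 10856 on Cd74 and 22.4 on Tmem54, and Tmem54 was well above background on its own array alone. All 3 arrays lay on 1 slide and were scanned on 1 day. Of 10 hepatocyte markers 4 were detected on every array (Alb, Afp, Trf, Serpina1a), and Apoa1, Apob, Ttr, Hnf4a, Fgb and Cps1 were not detected. Of 7 fibroblast and stellate markers 6 were detected, of 5 macrophage markers 4, of 4 cholangiocyte markers 3, of 5 endothelial markers 2 and of 4 lymphoid markers 2. Summed over the detected ones, the fibroblast list read 90696 on Empty, 91826 on Cd74 and 82367 on Tmem54, and the hepatocyte list 78996, 64145 and 87999. The median of the fibroblast list put the arrays in another order, at 4858 on Empty, 2794 on Cd74 and 6023 on Tmem54. For the hepatocyte list the medians were 15623, 13843 and 18483. The part of these markers in the values of the interval probes was not tested.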

How the data were processed

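The deposited array files hold, for each spot, a processed signal, which is a background-adjusted and detrended linear intensity in 1 colour, per the file headers. The submitters' processing notes name version 12.0.3.1 of Agilent Feature Extraction. The authors' value table holds the same processed signal divided by 1 constant per array (580.3, 559.8 and 580.7). Each constant lies close to the array's 75th percentile over all spots, and the authors' reason for it is not given in the sources used here. Groups came from the transfection label. From the intensity, log2 values minus each array's 75th percentile over spots other than controls were computed (Python 3.11.15, pandas 2.3.3). Spots with outlier flags were left out, and spots of a probe were averaged. An interval probe with no usable spot (1) has no value. Differences were counted at 2-fold. Named probes were the 10 highest and 10 lowest per vector (5 and 5 between vectors) among those detected on all 3 arrays with a brighter signal of at least 60.6, the median of detected interval probes, the 3 largest bounds each way, the 10 brightest, intervals with 3 probes moving together, and their flanking genes. Loci on chromosomes 1, 9, 11, 17 and X were described in full after their values were seen. Neighbour genes were found by probe coordinates on mm9, the build of the file headers. Symbols came from RefSeq on GRCm38.p6 (34610 probes by accession, 9175 by symbol, 283 by synonym, 8088 unmatched), and a gene takes its detected probe with the highest mean. Alternatives were normexp background correction in limma 3.58.1 (offset 50), other centring, detection, distance and filters. The counting code was run on data simulated from the Empty values with the same noise at every signal. Such data cannot show how often the counts err near background or in the last rows. The interval probes and gene lists were chosen with earlier results of these data known. With 1 array per vector there is no test, and the number of arrays limits the precision.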

Additional observations from a re-analysis of the deposited data

Results flagged for a closer look

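The chromosome 9 pair of interval probes lay on opposite sides of Empty with the 2 vectors. A_30_P01018914 was at 1.47 with Cd74 and -1.33 with Tmem54 on the log2 scale. A_30_P01020518 was at 1.26 with Cd74 and -1.21 with Tmem54. With normexp correction the Tmem54 side of both fell short of 2-fold. The difference between the vectors was not tested, since each has 1 array. The probes touch end to end and are not independent readings.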

How the results depend on the processing

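No paired analysis was possible because each vector has 1 array. The counts of interval probes past 2-fold with Cd74 against Empty, Tmem54 against Empty and Cd74 against Tmem54 were 68, 52 and 69. They fell to 16, 13 and 21 with normexp background correction, 31, 14 and 35 among probes detected on both arrays, 19, 8 and 27 among the brighter probes detected on all 3 arrays, and 15, 22 and 21 at 4-fold. Beside these counts, the share of all probes was 2.22%, 1.4% and 2.89% in the main setting, 0.57%, 0.42% and 0.898% with normexp, 1.17%, 0.547% and 1.77% on both arrays, 0.993%, 0.471% and 1.68% among the brighter probes, and 0.548%, 0.495% and 0.743% at 4-fold. Without the last 16 array rows, an alternative chosen after seeing the data, they were 37, 20 and 36, beside 1.47%, 0.659% and 2.15%. The cause of the change with normexp was not tested. Normexp moved the share that was higher with Cd74 than Empty from 45.6% (31 of 68) to 62.5% (10 of 16), and that of Cd74 over Tmem54 from 52.2% (36 of 69) to 66.7% (14 of 21). Over all probes past 2-fold the same shares moved from 43.5% to 50.3% and from 48.5% to 47.2%. Centring on the median, the value table and 1 probe per interval and strand kept each count within 1.5 times. Detection at the laxer call of positive and significant signal gave 3642 interval probes in place of 2363. Pairs with the gene past 2-fold on the same side fell from 9, 3 and 10 to 1, 1 and 2 within 10 kb. Among 189 values of named probes, normexp moved 91 by more than their model error, and none of the called ones changed sign under any of the 3 other scalings. Signals near background limit the folds of dim probes.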

Other observations

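Of 11 further probes of the same design series, 10 carry a name and 1 an interval without a strand letter, and that 1 was not detected. Of those with a name, XIST, KCNQ1ot1, NEAT1, TUG1 and NRON were well above background on all 3 arrays, and H19, HOTAIR, TSIX, PINC and lincP21 on none. The probe named NEAT1 read 3044 on Empty, 3235 on Cd74 and 2694 on Tmem54, and that named TUG1 1258, 1403 and 1365. None of the detected ones differed 2-fold between arrays. A_30_P01020836 on chromosome 15, row 269, was outside the ranking because it was not well above background on Tmem54. It read 67.6 on Empty and 19.3 on Cd74, a log2 difference of -1.74, and was chosen after its values were seen.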
